A study of Caenorhabditis elegans with 18 samples.

Results

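The response of met-2(ok2307) mutant worms to cco-1 RNAi was measured in 6 of the 18 RNA-seq libraries of a Caenorhabditis elegans study. These are the 3 libraries whose titles name met-2(ok2307) on cco-1 RNAi and the 3 whose titles name met-2(ok2307) on empty vector (EV), and all 20505 gene models of their count tables were used. Worms were kept at 20C from hatching onward and fed bacteria carrying either the empty vector or the vector with a cco-1 insert, and RNA was taken from whole worms at the L4 stage. Every worm in both groups carries the met-2(ok2307) allele, so the comparison shows the effect of the RNAi in the mutant and not the effect of the mutation. The other 12 libraries hold the N2 strain and lin-65(n3441) under the same pair of treatments, with 3 libraries in each group. Nothing in the labels says that replicates are separate cultures, so each p-value measures the spread between these samples, which may be technical.

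The gene cco-1, now named cox-5B, encodes subunit 5B of cytochrome c oxidase, the last complex of the respiratory chain. Lowering it in developing worms is a standard way to disturb mitochondria and to induce the mitochondrial unfolded protein response, in which nuclear genes for mitochondrial chaperones, import factors and detoxification enzymes are transcribed under the factors ATFS-1 and DVE-1. MET-2 is a histone methyltransferase that places mono- and dimethyl marks on lysine 9 of histone H3. Together with its partner LIN-65 it is known to act in the chromatin changes that accompany mitochondrial stress, and the comparison asks what the RNAi does to transcripts in worms that carry this met-2 allele.

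The 6 met-2 libraries held 8274792 to 16903191 counts (5141303 to 19261705 over all 18), so that 3 counts corresponded to 0.177 to 0.363 CPM (counts scaled to the TMM-adjusted library total). RNAi replicate 1 stood apart from its mates. Its root mean square deviation from the group mean was 0.771 on the log2 scale, against 0.394 and 0.571 in RNAi replicates 2 and 3 and 0.249 to 0.353 in the EV libraries. The deviation followed the annotated length of the 3′ untranslated region, with a rank correlation across genes of -0.646 in RNAi replicate 1 and of 0.468 and 0.570 in replicates 2 and 3. The correlation of the fold change itself with that length, over 14130 genes, was -0.352 with the library and 0.153 without it, while it was 0.409 in N2 and 0.386 in lin-65. Main results and list medians are therefore given with and without this library. Its part in them beyond those values was not tested. As the tissue is the whole worm, fewer cells of a type and less RNA per cell cannot be told apart.

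The targeted transcript was lower on cco-1 RNAi. cox-5B had 611, 579 and 900.1 CPM in the 3 EV libraries and 438, 353 and 268 CPM in the 3 RNAi libraries, so that every RNAi library lay below every EV library. The log2 fold change was -0.98 ± 0.23 (SE) with an adjusted p of 0.0407 in edgeR's quasi-likelihood test, and -1.18 with an adjusted p of 0.0159 without RNAi replicate 1. The call was lost without EV replicate 1 (adjusted p 0.138), 2 (0.0615) or 3 (0.268) and without RNAi replicate 2 (0.12) or 3 (0.17). It was also lost with the untranslated region trend removed from all 18 libraries, a setting chosen after seeing the data (-0.70, adjusted p 0.395), with other library factors (0.0721), without a filter on low counts (0.0514) and in the 6 met-2 libraries alone (0.446). The met-2 transcript had 22.8, 18.8 and 14.9 CPM on EV and 6.12, 18.7 and 22.7 CPM on RNAi, and lin-65 had 25.6, 25.1 and 20.1 CPM on EV and 7.20, 23.3 and 32.2 CPM on RNAi. For both genes only RNAi replicate 1 lay outside the EV range on the low side, and neither passed the test (adjusted p 0.841 and 0.903). The fitted fold changes of both genes turned from below to above 0 without that library, to 0.10 for met-2 and 0.20 for lin-65.

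Across the transcriptome, 167 of 15110 genes tested (1.11%) had an adjusted p under 0.05, and these are the genes said here to have risen or fallen. Higher on RNAi were 82 genes (0.543%) and lower were 85 (0.563%), with a median log2 fold change of 0.006 over all genes tested. Yolk genes, the pud genes other than pud-1.2 (-2.78), ule-5, ule-3, stha-3 and fat-7 were among those below -3 on the log2 scale. Cytochrome P450 genes led the rise among genes with a symbol of letters-hyphen-number form. The highest fold change of all was that of F22B3.7, chosen after its values were seen, with 0.352, 0.0706 and 0 CPM on EV and 5.83, 7.15 and 8.60 CPM on RNAi (5.42 ± 0.61, adjusted p 1.56e-04; 5.51 without RNAi replicate 1). All 167 had RNAi libraries that lay wholly above or wholly below the EV libraries, which held for 7.41% (above) and 5.98% (below) of all genes tested. Without RNAi replicate 1 the count was 180 (1.18%; 68 higher, 0.445%, and 112 lower, 0.733%), and 60 of the 82 and 70 of the 85 genes kept their call. It was 93 without EV replicate 1, 91 without EV replicate 2 and 109 without RNAi replicate 2. There were 75 genes, 36 higher and 39 lower, that passed whichever 1 of the 6 met-2 libraries was left out. Those fits still took their shared spread from the N2 and lin-65 libraries as well. In the 6 met-2 libraries alone, 23 of the 58 named genes past the threshold kept their call.

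**Figure D1:**
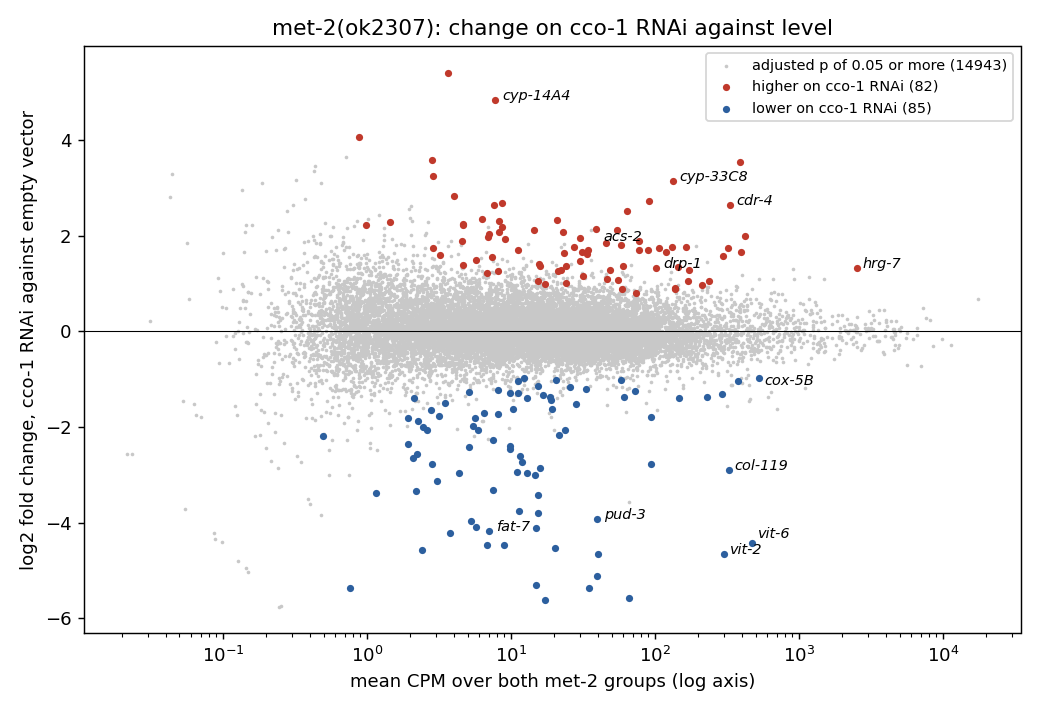
Log2 fold change on cco-1 RNAi against EV in met-2(ok2307) (vertical axis) against the mean CPM of the 2 met-2 groups (horizontal, log axis), 1 point per gene tested. The 82 genes that rose are red, the 85 that fell are blue and all others are grey; vit-2 and vit-6 lie at high level and low fold change, and cyp-14A4 and cyp-33C8 among the highest.

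The best known reporter genes of the mitochondrial unfolded protein response did not pass the test in met-2, nor did they in N2 or lin-65. hsp-6, the mitochondrial HSP70 chaperone, had 696, 714 and 458 CPM on EV and 248, 802 and 1251 CPM on RNAi. Both groups overlapped, because RNAi replicate 1 was the lowest of the 6 libraries and replicates 2 and 3 were the highest. The fold change was 0.30 ± 0.41 (adjusted p 0.853), 0.69 without RNAi replicate 1 (0.571) and -0.25 without RNAi replicate 3. hsp-60, its partner chaperonin, had 523, 557 and 492 CPM on EV and 712, 593 and 791 CPM on RNAi. The groups did not overlap, but the fold change of 0.42 ± 0.20 had an adjusted p of 0.536. That of hsp-60 was -0.29 ± 0.20 in N2 and -0.02 ± 0.20 in lin-65. Of 13 mitochondrial chaperone and protease genes tested, 0 passed, 11 had a positive fold change and the median was 0.41 (0.36 without RNAi replicate 1). The lowest p among them was that of phb-2, a prohibitin of the inner membrane, with 288, 326 and 355 CPM on EV and 536, 467 and 506 CPM on RNAi (0.64 ± 0.17, adjusted p 0.0938).

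Import genes had positive fold changes throughout. All 21 genes of the mitochondrial import machinery tested had a positive fold change, and the median was 0.50 (0.26 without RNAi replicate 1). In 6 of them the RNAi libraries lay wholly above the EV libraries, against 7.41% of all genes tested. None of the 21 passed the test. Their sums overlapped between the groups, at 1533 to 2076 CPM on EV and 2024 to 2687 CPM on RNAi, the highest in RNAi replicate 1. tomm-70, a receptor of the outer membrane translocase, had 90.9, 84.3 and 75.5 CPM on EV and 118, 136 and 143 CPM on RNAi (0.66 ± 0.17, adjusted p 0.0926). Among 15 regulators of the response, which include ATFS-1 and the peptide exporter gene haf-1, 0 passed and the median was -0.15 (0.06 without RNAi replicate 1). Mitochondrial ribosomal protein genes (66 tested) had a median of 0.32 and none passed, and without RNAi replicate 1 the median was -0.03. Nuclear genes of respiratory complexes I, II, III and V (38 tested) had a median of 0.11 (0.08 without RNAi replicate 1), the 12 mitochondrially encoded models one of 0.20 (0.42), and 0 of either group passed. Of 13 cytochrome c oxidase subunit genes, the RNAi target itself was the 1 that fell, and the median was 0.24 (0.02 without RNAi replicate 1).

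Other mitochondrial genes did rise, although they were picked for description after their values were seen. drp-1, the dynamin-related GTPase that divides mitochondria, had 61.5, 56.4 and 55.0 CPM on EV and 127, 162 and 148 CPM on RNAi. Every RNAi library was above every EV library, and the fold change was 1.34 ± 0.19 (adjusted p 9.58e-04; 1.402 without RNAi replicate 1). mff-2, named for the mitochondrial fission factor that recruits this GTPase in mammals, had 15.1, 15.04 and 18.7 CPM on EV and 42.7, 68.5 and 46.6 CPM on RNAi (1.70 ± 0.30, adjusted p 0.00506). stl-1, a stomatin-like gene, went from 58.9, 59.1 and 61.2 CPM to 303, 161 and 149 CPM. Its fold change of 1.77 ± 0.26 (adjusted p 0.00127) was 1.35 without RNAi replicate 1, the highest of its 3 RNAi libraries. These 3 genes passed whichever met-2 library was left out.

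Detoxification enzymes supplied 6 of the 15 genes named for the highest fold changes. Cytochrome P450 enzymes oxidise foreign and endogenous small molecules, and 6 of 54 such genes tested rose, against 0.543% of all genes, and 0 fell. The list median was 0.32 (0.05 without RNAi replicate 1, where 6 rose and 1 fell). Their summed level was 485 to 553 CPM in the EV libraries and 715 to 892 CPM in the RNAi libraries. cyp-14A4 had 0.586, 0.494 and 0.428 CPM on EV and 17.2, 15.2 and 12.4 CPM on RNAi, a low level in every EV library and a clear signal in every RNAi library. Its fold change of 4.85 ± 0.51 (adjusted p 5.5e-05) was 4.72 without RNAi replicate 1. cyp-33C8, a far more abundant member, had 28.5, 27.8 and 24.5 CPM on EV and 255, 241 and 227 CPM on RNAi (3.16 ± 0.32, adjusted p 3.5e-05; 3.09 without RNAi replicate 1). In both genes the spread within a group was small beside the gap between the groups. cyp-13A8 (3.58 ± 0.35), cyp-13A12 (2.36 ± 0.37), cyp-14A1 (2.07 ± 0.37) and cyp-33C9 (1.02 ± 0.20) rose as well. The call for cyp-14A1 was lost without EV replicate 1 (adjusted p 0.0557), and that for cyp-33C9 without EV replicate 1 (0.0699), 2 (0.09) or 3 (0.0557).

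UDP-glucuronosyltransferases, which conjugate sugars to such molecules for export, moved alongside. Of 63 tested, 7 rose, against 0.543% of all genes, and 0 fell, with a median of 0.46 (0.20 without RNAi replicate 1, where 7 rose and 1 fell). Their sum went from 1378 to 1496 CPM over the EV libraries to 2217 to 2780 CPM over the RNAi libraries. ugt-19 had 29.4, 21.8 and 20.1 CPM on EV and 208, 132 and 133 CPM on RNAi. The lowest RNAi library was well above the highest EV library, and the fold change was 2.73 ± 0.27 (adjusted p 3.5e-05; 2.45 without RNAi replicate 1). ugt-61 (1.76 ± 0.23), ugt-2 (1.65 ± 0.27) and ugt-21 (1.28 ± 0.22) passed whichever met-2 library was left out. Of 45 glutathione S-transferase genes only gsto-1 passed, with a list median of 0.20 (-0.05 without RNAi replicate 1). gsto-1 rose (1.05 ± 0.24, adjusted p 0.0381). That call was lost without EV replicate 1 (0.27) or 2 (0.186), or 3 (0.0514), or without RNAi replicate 1 (0.128) or 2 (0.0713).

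Single genes of the cadmium-responsive cdr and heme-responsive hrg families rose too. cdr-4, a cadmium-responsive gene related to glutathione S-transferases, had 89.4, 94.9 and 90.4 CPM on EV and 855, 414 and 454 CPM on RNAi. The EV libraries were within a few CPM of each other, and the fold change was 2.65 ± 0.26 (adjusted p 3.5e-05; 2.22 without RNAi replicate 1, the highest). cdr-2 of the same family rose by 1.74 ± 0.20, from 50.3, 43.9 and 53.5 CPM to 215, 146 and 132 CPM. Heme cannot be made by C. elegans, which takes it from its food through proteins of the heme-responsive hrg genes. hrg-2, a hypodermal membrane protein of this group, had 14.6, 18.8 and 23.3 CPM on EV and 113, 102 and 112 CPM on RNAi (2.53 ± 0.28, adjusted p 1.05e-04; 2.48 without RNAi replicate 1). hrg-7, a secreted aspartic-protease-like protein that signals heme status from the intestine, was the most abundant gene that rose, with 1096, 1342 and 1888 CPM on EV and 3771, 3102 and 3939 CPM on RNAi (1.32 ± 0.22, adjusted p 0.00267).

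The heme list as a whole held 41 genes tested, of which 4 rose (0.543% of all genes did) and 0 fell, with a median of 0.11 (0.09 without RNAi replicate 1, where 2 rose). Its summed level of 1451 to 2298 CPM on EV and 3629 to 4461 CPM on RNAi is mostly that of hrg-7. hrg-3, a secreted intestinal peptide that carries heme to the embryos, had 2.75, 4.03 and 9.51 CPM on EV and 34.4, 19.3 and 16.7 CPM on RNAi (2.13 ± 0.48, adjusted p 0.0366). Its call was lost without EV replicate 1 (0.201) or 2 (0.257) and without RNAi replicate 1 (0.102) or 2 (0.0648). hrg-9 (1.23 ± 0.27, adjusted p 0.0302) lost its call whichever 1 of the 6 libraries was left out, with adjusted p of up to 0.174.

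Several single genes of other kinds were among the 15 named for the highest fold changes. amt-1, an ammonium transporter, had 0.645, 1.13 and 1.199 CPM on EV and 9.58, 3.81 and 7.83 CPM on RNAi (2.84 ± 0.50, adjusted p 0.00523; 2.51 without RNAi replicate 1). The call did not hold without EV replicate 1 (0.0557), and the other 5 ammonium transporters did not pass. bath-45, which encodes a BATH domain protein, had 1.99, 3.18 and 1.80 CPM on EV and 20.96, 14.4 and 9.37 CPM on RNAi (2.68 ± 0.36, adjusted p 4.28e-04). gpa-1, a G protein alpha subunit of sensory neurons, went from 1.64, 1.201 and 2.14 CPM to 7.56, 8.85 and 6.67 CPM (2.22 ± 0.33, adjusted p 0.00127). Every RNAi library of these 3 genes exceeded every EV library, which the naming rule required, all at low levels. rips-1 had 16.47, 22.5 and 21.5 CPM on EV and 119.1, 88.7 and 56.6 CPM on RNAi (2.13 ± 0.28, adjusted p 3.71e-04). clec-17, a C-type lectin, rose by 2.18 ± 0.35. Of 130 C-type lectin genes tested it was 1 of 4 that rose, against 0.543% of all genes. clec-86 was the 1 that fell (-2.06 ± 0.27), against 0.563% of all genes. The list median was -0.05 (-0.28 without RNAi replicate 1, where 3 rose and 1 fell). The ABC transporter pgp-9, a P-glycoprotein, was picked after its values were seen and rose by 1.71 ± 0.23 (adjusted p 5.61e-04).

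**Figure D2:**
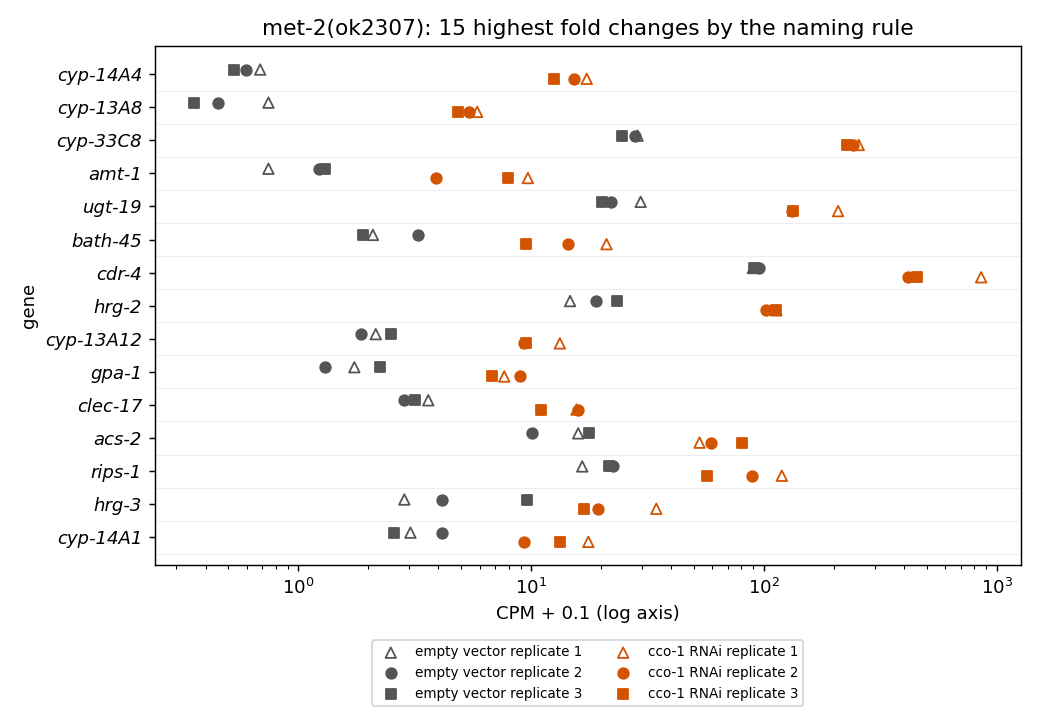
CPM plus 0.1 (horizontal, log axis) in each met-2 library for the 15 genes named for the highest fold changes; grey marks are EV libraries, orange marks are cco-1 RNAi libraries, and open triangles are replicate 1. The 3 RNAi libraries lie to the right of the 3 EV libraries for every gene, because the naming rule required separate groups. hrg-3 is the least separated of the genes described.

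The named genes with the lowest fold changes included all of the yolk genes. Vitellogenins are the yolk precursor proteins that the intestine makes from the end of larval life and passes to the oocytes. All 6 genes, vit-1 to vit-6, fell, against 0.563% of all genes tested, with a median log2 fold change of -4.98 (-5.10 without RNAi replicate 1), and all 6 passed whichever met-2 library was left out. Their summed level was 1058 to 2480 CPM in the EV libraries and 69.2 to 73.4 CPM in the RNAi libraries. The EV libraries thus differed among themselves by more than the RNAi libraries did.

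Single members show the same split. vit-2 had 569, 826.5 and 337 CPM on EV and 26.4, 21.5 and 20.8 CPM on RNAi (-4.65 ± 0.54, adjusted p 1.16e-04). vit-6, the most abundant, had 877, 1276 and 536 CPM on EV and 35.3, 43.8 and 45.3 CPM on RNAi (-4.43 ± 0.60, adjusted p 5.32e-04). In both, EV replicate 2 was the highest library and EV replicate 3 the lowest of its group, still far above every RNAi library. vit-1 went from 126, 195 and 66.2 CPM to 1.80, 2.38 and 4.11 CPM (-5.58 ± 0.78). vit-5 went from 69.8, 97.5 and 66.0 CPM to 3.67, 3.27 and 2.18 CPM (-4.65 ± 0.56). vit-4 (-5.62 ± 0.60) and vit-3 (-5.30 ± 0.62) ended between 0.477 and 1.01 CPM. The genes vit-3, vit-4 and vit-5 are near-identical copies, and how reads were divided among them is not given in the sources used here, so their separate values are uncertain. None of the 14 genes listed as regulators of yolk transcription or as the yolk receptor passed, with a median of -0.44 (-0.03 without RNAi replicate 1).

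The genes ule-5, ule-3 and stha-3, named for their low fold changes, fell as well. ule-5, of the uterine lumen expressed group, had 33.7, 60.3 and 22.4 CPM on EV and 1.66, 1.97 and 1.28 CPM on RNAi (-4.53 ± 0.55, adjusted p 1.65e-04). ule-3 had 27.4, 35.4 and 22.1 CPM on EV and 4.47, 1.91 and 1.28 CPM on RNAi (-3.43 ± 0.49, adjusted p 8.42e-04). stha-3, next to ule-5 on chromosome X, went from 12.8, 22.1 and 16.3 CPM to 0.648, 0.953 and 0.642 CPM (-4.47 ± 0.51). Without RNAi replicate 1 the 3 fold changes were -4.55, -4.12 and -4.37. Of 12 markers of vulva and uterus fixed as a list, only egl-17 fell, against 0.563% of all genes, and 0 rose. The list median was -0.28 (0.01 without RNAi replicate 1, where 0 passed). egl-17, a fibroblast growth factor of the vulval cells, went from 2.05, 3.67 and 3.43 CPM to 0.576, 1.29 and 0.642 CPM (-1.81 ± 0.39, adjusted p 0.0235). Its call was lost without RNAi replicate 1 (0.106) or 3 (0.0961) and without EV replicate 2 (0.142) or 3 (0.0904).

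The pud genes, named as proteins upregulated in daf-2 mutants, fell as a group. All 5 tested fell, against 0.563% of all genes, with a median of -3.93 (-4.62 without RNAi replicate 1). Their sum went from 309 to 520 CPM on EV to 23.1 to 54.9 CPM on RNAi. pud-3 had 95.6, 55.2 and 72.3 CPM on EV and 8.28, 3.27 and 2.82 CPM on RNAi (-3.93 ± 0.44, adjusted p 1.05e-04). pud-4 had 37.5, 19.9 and 28.6 CPM on EV and 3.46, 1.29 and 1.28 CPM on RNAi (-3.80 ± 0.53, adjusted p 7.66e-04). Here RNAi replicate 1 was the highest of the RNAi libraries, so both fold changes were steeper without it (-4.62 and -4.49). pud-2.2 (-5.37 ± 0.86), pud-1.1 (-5.12 ± 0.98) and pud-1.2 (-2.78 ± 0.47) are near-identical pairs with their relatives, and their separate values are uncertain. pud-1.1 lost its call without RNAi replicate 2 (adjusted p 0.0768).

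**Figure D3:**
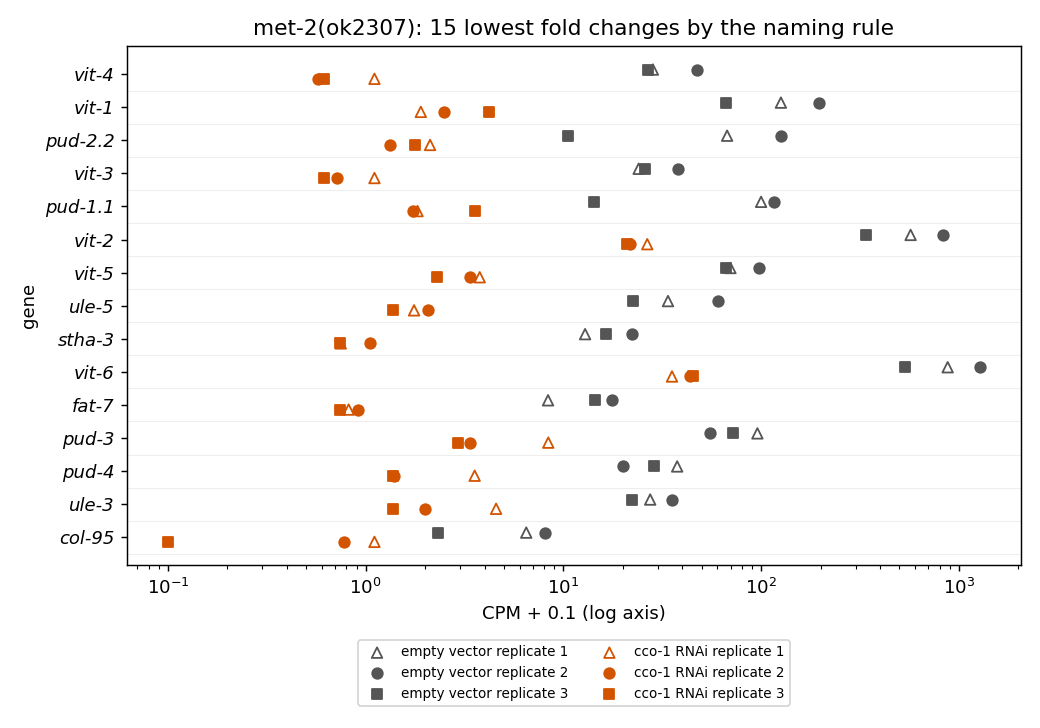
CPM plus 0.1 (horizontal, log axis) in each met-2 library for the 15 genes named for the lowest fold changes; grey marks are EV libraries, orange marks are cco-1 RNAi libraries, and open triangles are replicate 1. No RNAi library reaches an EV library for any of these genes, because the naming rule required separate groups. vit-2 and vit-6 end between 20.8 and 45.3 CPM, and col-95 is at 0 in RNAi replicate 3.

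Lipid genes changed in both directions. Of all genes tested, 0.543% rose and 0.563% fell. fat-7, a delta-9 fatty acid desaturase that makes oleate from stearate, had 8.26, 17.6 and 14.4 CPM on EV and 0.720, 0.817 and 0.642 CPM on RNAi. Every EV library was far above the RNAi libraries, which were nearly equal, and the fold change was -4.17 ± 0.41 (adjusted p 3.5e-05; -4.17 without RNAi replicate 1). fat-5, the delta-9 desaturase of palmitate, went from 20.0, 24.5 and 15.4 CPM to 3.75, 3.68 and 2.31 CPM (-2.60 ± 0.40, adjusted p 0.00181). These 2 were the only ones to pass among 16 desaturase and elongase genes, with a median of -0.24 (-0.16 without RNAi replicate 1) and a summed level of 4946 to 5318 CPM on EV and 4339 to 4653 CPM on RNAi. acs-2, an acyl-CoA synthetase of mitochondrial fatty acid oxidation, rose from 15.8, 10.0 and 17.6 CPM to 52.7, 59.2 and 80.1 CPM (2.14 ± 0.39, adjusted p 0.00622; 0.0702 without EV replicate 2). acox-1.4, a peroxisomal acyl-CoA oxidase, was the 1 that fell (-1.01 ± 0.22, adjusted p 0.0291), in a list of 28 oxidation genes with a median of 0.02 (-0.21 without RNAi replicate 1). It lost that call without EV replicate 1 (0.146), 2 (0.0934) or 3 (0.169) and without RNAi replicate 2 (0.122) or 3 (0.0859).

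Cuticle collagens that passed the test all fell. Of 129 col genes tested 5 fell, against 0.563% of all genes, and 0 rose, with a median of -0.10. Without RNAi replicate 1, 17 fell, against 0.733% (median -0.31). A positive fold change was seen in 55 of the 129. RNAi libraries lay wholly above the EV libraries in 12 (7.41% of all genes) and wholly below in 29 (5.98%). col-10 went from 831, 706 and 1329 CPM on EV to 2402, 1680 and 2016 CPM on RNAi (1.09 ± 0.27, adjusted p 0.0611). col-135 had 1.93, 1.55 and 1.03 CPM on EV, 0.072 CPM in RNAi replicate 1 and 0 CPM in replicates 2 and 3 (adjusted p 0.00507), and it passed whichever met-2 library was left out. Of 8 collagens of the adult cuticle 2 fell, with a median of -1.03, and 4 fell without that library (-1.46). col-119 had 471, 767 and 483 CPM on EV and 120, 80.4 and 29.9 CPM on RNAi (-2.90 ± 0.56, adjusted p 0.0116). The call was lost without EV replicate 2 (0.0635) and without RNAi replicate 2 (0.0642) or 3 (0.0552). col-7 had 20.5, 30.5 and 7.88 CPM on EV and 2.88, 3.00 and 1.67 CPM on RNAi (-2.93 ± 0.61, adjusted p 0.0195; up to 0.126 without EV replicate 1 or 2 or RNAi replicate 2 or 3). col-95 had 6.39, 7.98 and 2.23 CPM on EV and 1.01, 0.681 and 0 CPM on RNAi (-3.14 ± 0.68, adjusted p 0.025), and its call was lost without EV replicate 1 (0.105) or 2 (0.142) and without RNAi replicate 2 (0.1) or 3 (0.0719). In each of these genes the groups still did not overlap. Furrow collagens (6 tested, median -0.10, and -0.24 without RNAi replicate 1) and molting genes (26 tested, -0.28 and -0.21) had 0 calls.

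Markers of developmental timing differed between the libraries themselves. Yolk genes and adult collagens are switched on near the L4 to adult transition, so the timing genes are given beside them. lin-42, a period-like gene that cycles with the molts, had 328, 405 and 220 CPM on EV and 12.9, 260 and 261 CPM on RNAi. lin-29, the transcription factor of the adult switch, had 42.5, 44.6 and 26.2 CPM on EV and 3.60, 34.2 and 49.2 CPM on RNAi. For both, RNAi replicate 1 was far below the other 5 libraries, while RNAi replicates 2 and 3 lay within or close to the EV range. The 10 genes of this list summed to 383 to 669 CPM on EV, to 37.2 CPM in RNAi replicate 1 and to no more than 551 CPM in the others, with 0 calls. The yolk genes summed to 69.2 CPM in RNAi replicate 1 and to 72.0 and 73.4 CPM in RNAi replicates 2 and 3. The annotated 3′ untranslated region of lin-42 is 939 bases long, and the deviation of RNAi replicate 1 ran against that length (-0.646). Whether timing or this length trend lies behind its low lin-42 was not tested. The part of developmental timing in the falls was not tested.

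Markers of whole tissues gave few calls. None passed among 33 germ granule and meiotic genes, whose median was -0.05 (0.002 without RNAi replicate 1), or among 29 sperm genes, with 0.07 (-0.22 without it). Major sperm proteins (29 tested) had a median of -0.15 (-0.77 without it), and oocyte and eggshell genes (25) one of -0.32 (-0.13), with 0 calls in either. Medians for the somatic tissues were -0.03 in intestine (14 genes; -0.12 without RNAi replicate 1, where 1 fell), -0.09 in body wall muscle (14; -0.05) and -0.15 in pharynx (11; 0.02). They were -0.03 in neurons (19; 0.17) and -0.17 in hypodermis (14; -0.25), and none of the 5 had a call in the 6 libraries. Sperm genes, germ granule genes, pharynx and neurons thus changed sign with RNAi replicate 1. The summed levels of these lists overlapped between the EV and RNAi libraries in every case. Major sperm proteins ranged from 919.5 to 1453 CPM on EV and from 376 to 1319 CPM on RNAi, and oocyte and eggshell genes from 1255 to 2125 and from 936 to 1830 CPM.

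Stress and immune lists held few calls, given here beside the 0.543% of all genes that rose and the 0.563% that fell. hsp-17, a small heat shock gene, was the 1 of 28 cytosolic heat shock genes that rose, from 131, 118 and 192 CPM to 885, 332 and 258 CPM (1.75 ± 0.41, adjusted p 0.0444). That call rested on RNAi replicate 1 (0.99 and adjusted p 0.221 without it) and was also lost without EV replicate 1 (0.235), 2 (0.286) or 3 (0.0871). The antibacterial genes ilys-5, an invertebrate-type lysozyme, and thn-2, a thaumatin-like gene, fell by 1.31 and 1.33 on the log2 scale (adjusted p 0.0239 and 0.0322). Each lost its call in 4 of the 6 fits that leave out 1 met-2 library, with adjusted p of up to 0.204 for ilys-5 without EV replicate 3 and 0.223 for thn-2 without EV replicate 2. Of 22 DAF-16 target genes, cdr-2 rose and fat-7 and asm-3 fell, with a median of 0.06 (-0.37 without RNAi replicate 1), and the call for asm-3 (-2.39 ± 0.51) was lost without EV replicate 1 (0.0699) or 3 (0.113) and without RNAi replicate 2 (0.11) or 3 (0.0848). Antimicrobial genes (82 tested, thn-2 the 1 that fell) had a median of 0.35 that turned to -0.16 without RNAi replicate 1, where 2 fell. The 24 genes of the endoplasmic reticulum unfolded protein response had 0 calls and a median of -0.22 (-0.12 without RNAi replicate 1). Their sum was nevertheless lower in every RNAi library, at 10266 CPM in replicate 1 and up to 14345 CPM in the others, than in the EV libraries (15747 to 16243 CPM).

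Genes of sugar metabolism had mostly positive fold changes that did not pass. The 26 genes of glycolysis and gluconeogenesis had 0 calls, 20 positive fold changes, a median of 0.42 (0.26 without RNAi replicate 1) and sums of 6361 to 6705 CPM on EV and 8639 to 9337 CPM on RNAi. pck-1, the phosphoenolpyruvate carboxykinase of gluconeogenesis, had 441, 517 and 489.7 CPM on EV and 1060.3, 809 and 714 CPM on RNAi (0.83 ± 0.24, adjusted p 0.130). The groups did not overlap, yet the gene did not pass. In the propionate shunt and vitamin B12 list of 18 genes the nuclear hormone receptor gene nhr-68, which controls that pathway, was the 1 that fell. It had 14.1, 13.3 and 17.99 CPM on EV and 7.35, 8.44 and 6.03 CPM on RNAi (-1.05 ± 0.24, adjusted p 0.0355), and the call was lost whichever met-2 library was left out, with adjusted p of up to 0.193. Of 191 nuclear hormone receptor genes 3 rose and 1 fell, against 0.543% and 0.563% of all genes. Among the 3 was nhr-115 (1.41 ± 0.26, adjusted p 0.00811, and 0.084 without EV replicate 2). Lists of lipases, lipid binding proteins, the tricarboxylic acid cycle, short-chain dehydrogenases, antioxidant enzymes, cytosolic ribosomal proteins, H3K9 methylation factors and neuropeptides had 0 calls. Their medians ran from -0.37 (lipases; -0.51 without RNAi replicate 1, where 1 fell) to 0.44 (lipid binding proteins; 0.10 without it). Of 144 F-box genes 1 rose, near the 0.543% of all genes.

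**Figure D4:**
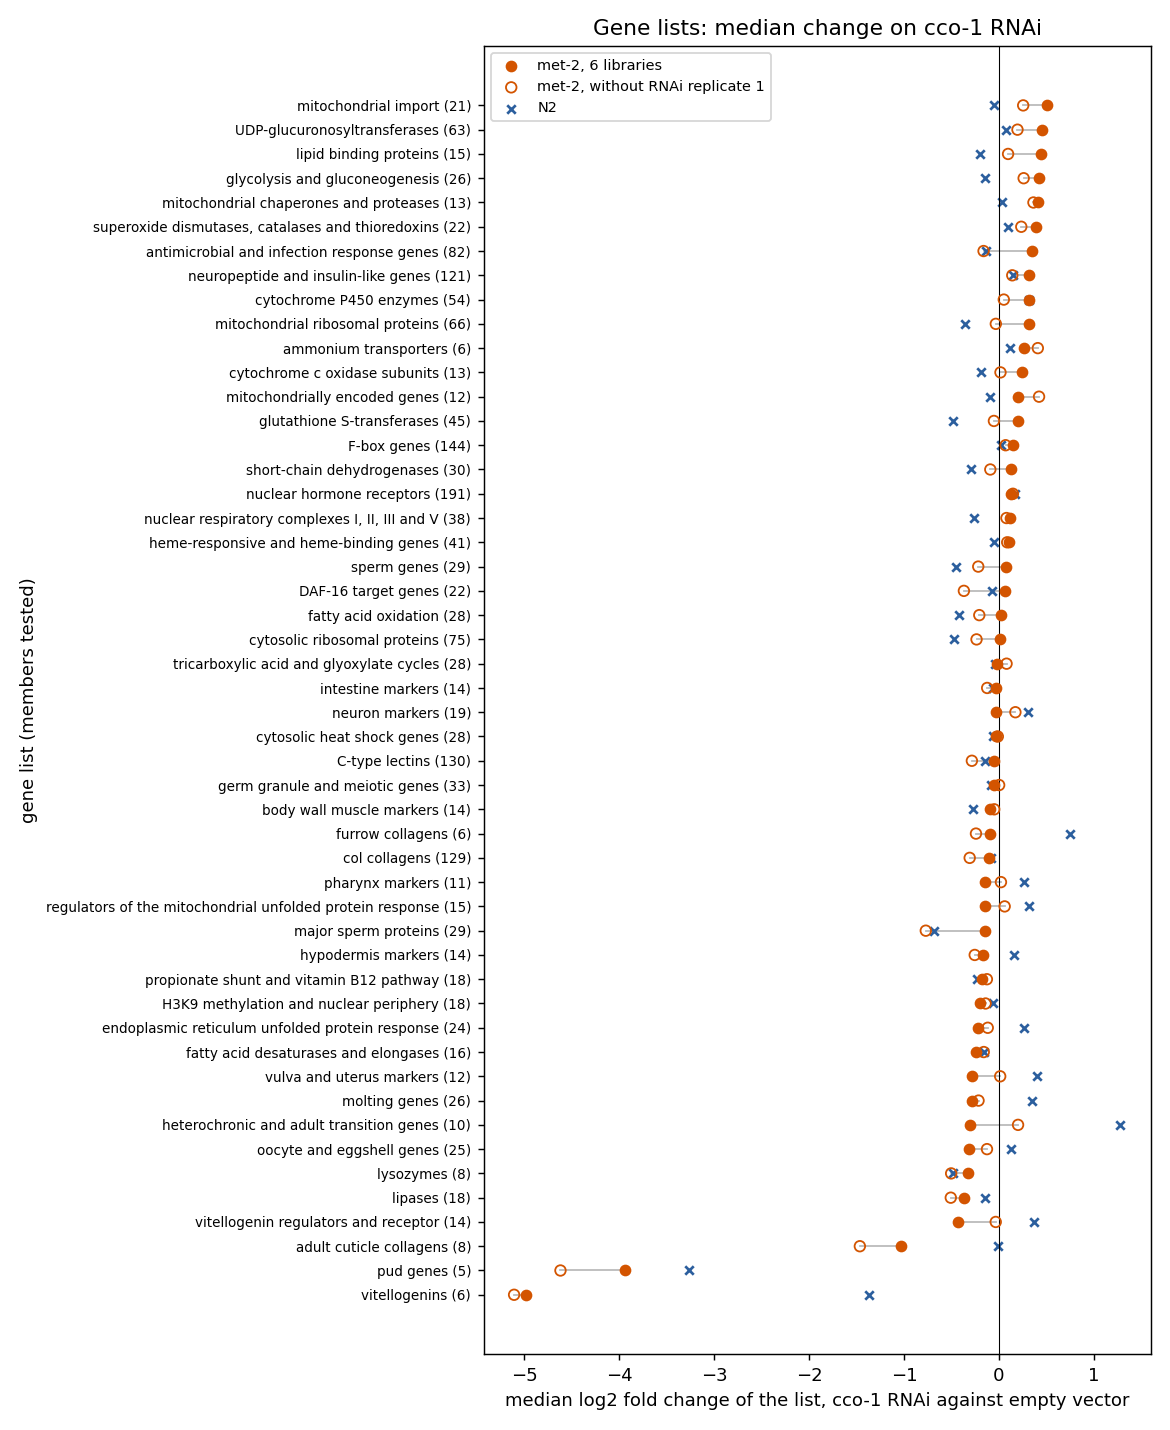
Median log2 fold change on cco-1 RNAi against EV of 50 gene lists (vertical axis, with the number of members tested) in the 6 met-2 libraries (filled circles), in met-2 without RNAi replicate 1 (open circles, joined by a line) and in N2 (crosses). Vitellogenins and pud genes lie far to the left in met-2; for mitochondrial ribosomal proteins and major sperm proteins the position depends on RNAi replicate 1.

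The met-2 response was then set beside the responses of N2 and lin-65, each measured against its own EV libraries. In N2 127 genes passed (0.841%) and in lin-65 108 (0.715%). The met-2 response shared 51 genes with N2, 30.5% of its own and 40.2% of those of N2, and 74 genes with lin-65, 44.3% of its own and 68.5% of those of lin-65. All 51 and all 74 had the same direction. The 41 genes that passed in all 3 strains include cox-5B, hrg-2, cdr-4, cyp-14A4, cyp-33C8, ugt-19, acs-2, drp-1, fat-7, pud-3, vit-3 and vit-4. Of the 167 genes of the met-2 response, 140 (83.8%) had the same sign in N2 and 161 (96.4%) in lin-65, against 38.7% and 41.3% of all genes tested. The fold change correlated with 3′ untranslated region length at -0.352 in met-2, 0.409 in N2 and 0.386 in lin-65. Without RNAi replicate 1 the met-2 value was 0.153. The shares of equal sign were not computed without that library, and the part of the length trend in them was not tested.

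**Figure D5:**
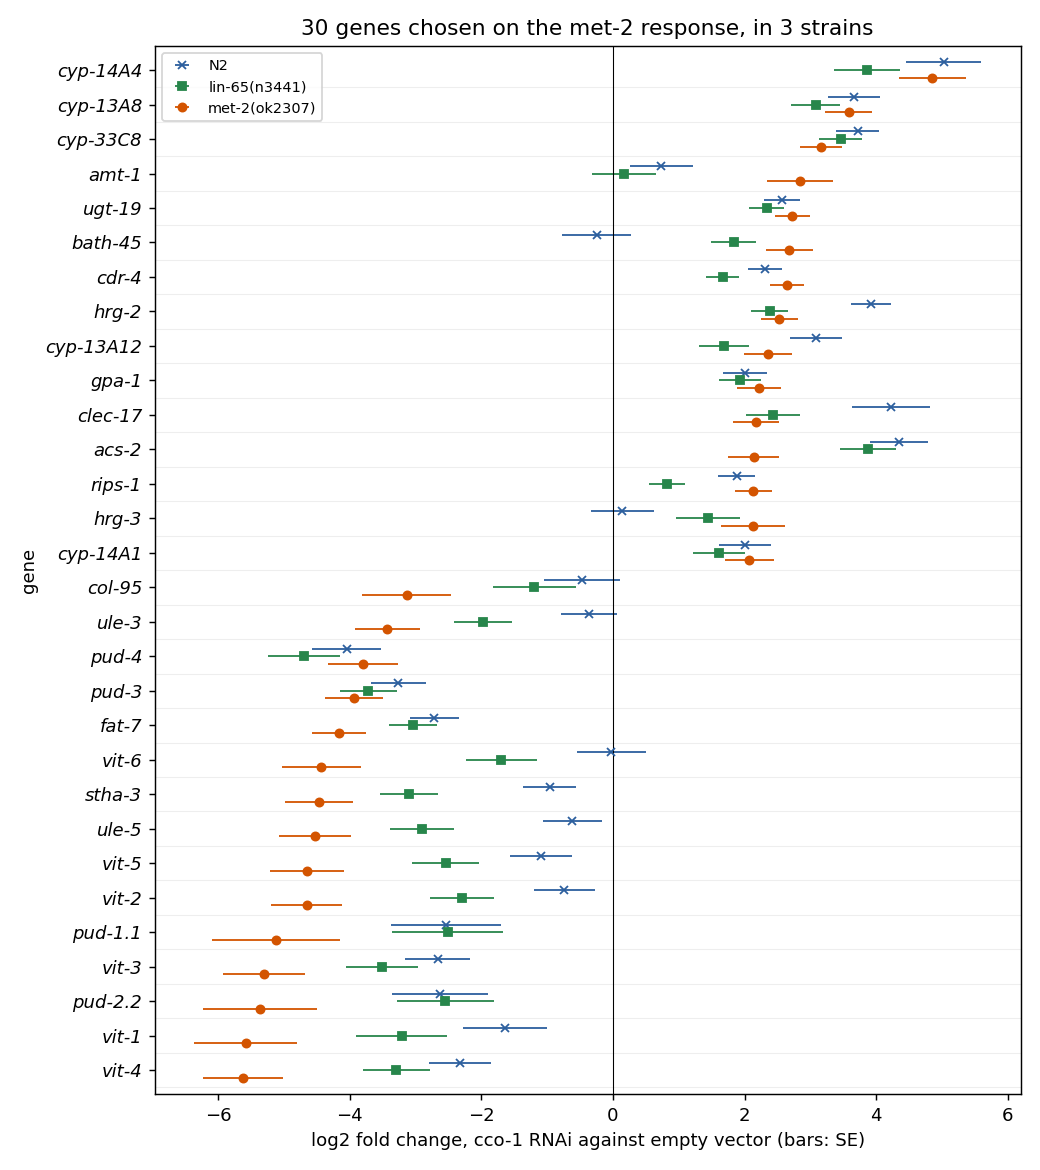
Log2 fold change ± SE on cco-1 RNAi against EV (horizontal axis) in N2 (crosses), lin-65(n3441) (squares) and met-2(ok2307) (circles) for the 15 highest and 15 lowest genes of the met-2 response. The choice on met-2 favours large values in met-2. cyp-14A4 lies between 3.87 and 5.03 in the 3 strains, whereas vit-6 lies at -4.43 in met-2 and at -0.02 in N2.

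No gene passed the test of the difference between the met-2 and N2 responses in edgeR (smallest adjusted p 0.062, 2603 genes with an unadjusted p under 0.05). DESeq2 gave 142 genes (0.94%; 51 higher and 91 lower in met-2). edgeR gave 11 without met-2 RNAi replicate 1, 1 without N2 EV replicate 3 and 127 (0.829%) in 16 libraries, without both that met-2 library and lin-65 EV replicate 1. With a replicate block it gave 32 (0.212%). The correlation of the difference with the length of the 3′ untranslated region was -0.472 across genes, and removing that trend gave 29 genes. Against lin-65 no gene passed in edgeR either (smallest adjusted p 0.432, 1723 with an unadjusted p under 0.05), and 1 passed in DESeq2 (0.00662%) and 1 in the 16 libraries (0.00653%).

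The yolk genes and ule-5 had wide gaps to N2. The yolk list fell in N2 as well, with a median of -1.37, and vit-3 (-2.67, adjusted p 0.013) and vit-4 (-2.32, 0.0213) passed there. In lin-65 the median was -2.88 and 5 of the 6 yolk genes passed. Of the yolk genes, vit-2 (-0.74) and vit-6 (-0.02) fell least in N2. vit-2 fell from 578 ± 245 to 22.9 ± 3.07 CPM (mean ± SD, n = 3) in met-2. In N2 it had 2291 ± 781 CPM on EV and 1370.4 ± 773.5 CPM on RNAi, and in lin-65 it had 423 ± 136 and 85.7 ± 56.3 CPM. The difference between the met-2 and N2 fold changes was -3.91 ± 0.68 (adjusted p 0.062 in edgeR, 7.57e-05 in DESeq2, 0.0191 in 16 libraries). vit-6 had 2150.4 ± 746 and 2117 ± 1164 CPM in N2, so that the groups there hardly differed, and its difference was -4.41 ± 0.77 (adjusted p 0.062; DESeq2 4.99e-05). ule-5 had 88.8 ± 19.7 and 58.1 ± 21.5 CPM in N2, with a difference of -3.92 ± 0.69 (adjusted p 0.062; DESeq2 8.48e-05). The list of timing genes had a median fold change of 1.28 in N2 and -0.30 in met-2 (0.20 without RNAi replicate 1). Its part in the yolk difference was not tested. Against lin-65 the differences were -2.36 ± 0.66 for vit-2 and -2.74 ± 0.75 for vit-6 (adjusted p 0.432 for both).

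For other genes the EV level was already high in the mutant. They were chosen after their values were seen, among 26 genes that passed for this difference in DESeq2, in the 16 libraries and in edgeR with a replicate block (24 lower and 2 higher in met-2). tbb-6, a beta-tubulin gene, had 21.97, 22.2 and 14.7 CPM on EV and 19.4, 23.2 and 21.2 CPM on RNAi in met-2. In N2 it rose from 2.55 ± 0.76 to 13.5 ± 0.37 CPM, so that met-2 worms on EV were above N2 worms on RNAi. The fold changes were 0.12 ± 0.28 in met-2 and 2.38 ± 0.31 in N2, and the difference was -2.27 ± 0.41 (adjusted p 0.062; DESeq2 1.82e-04). srlf-34 had 45.1 ± 2.83 and 77.6 ± 7.01 CPM in met-2 and 1.78 ± 0.45 and 11.4 ± 3.14 CPM in N2 (difference -1.86 ± 0.40, adjusted p 0.101). nlp-8, a neuropeptide gene, had 8.70 ± 2.15 and 7.65 ± 4.88 CPM in met-2 and 0.883 ± 0.657 and 8.62 ± 0.44 CPM in N2 (difference -3.33 ± 0.80, adjusted p 0.158). acs-2 showed a partly similar pattern, at 14.5 ± 3.98 CPM on EV in met-2 against 2.44 ± 1.14 CPM in N2, and 64.01 ± 14.3 against 47.6 ± 7.96 CPM on RNAi. Its difference of -2.21 ± 0.56 did not pass (adjusted p 0.184).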

How the data were processed

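Raw read counts were used as the authors deposited them, 1 column of counts over gene models for each library (0 columns left unused). Oligo-dT selection came before library making with ScriptSeq v2 (Epicentre), per the labels' protocols. Bowtie 0.12.7 and DESeq are named, without their roles, per the submitters' processing notes. None of the sources used here gives the build, gene models, counter or strandedness, so no coordinates are printed, and overlapping, antisense or near-identical genes may share counts. Of 20505 models, 20074 were matched by sequence name to the WBcel235 annotation (Ensembl 115), and 676 took their symbol from RefSeq. The other 431 held 0.148% of counts.

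Libraries were grouped by title, also lin-65 EV replicate 1, whose strain field reads N2 against its title and source. filterByExpr left 15110 genes. edgeR 4.0.16 in R 4.3.3 (TMM factors, robust quasi-likelihood test, two-sided, Benjamini-Hochberg adjustment over all genes tested, threshold 0.05) was fitted to all 18 libraries as 6 group means with 1 shared spread. The script was tested on simulated data. SE was derived from the log2 fold change and its F value. CPM are TMM-scaled. Beyond cox-5B, met-2, lin-65, hsp-6 and hsp-60, named genes were the 15 highest and 15 lowest fold changes past the threshold with separated libraries, a symbol of letters-hyphen-number form and 5 CPM or more on average in the higher group, and the members of 50 gene lists with the smallest p (up to 4 past the threshold). Genes outside this rule are said to be chosen after their values were seen. The members, lists and rule were chosen with earlier results of these data known. Alternatives were other library factors, filters and fits, DESeq2 1.42.0, a replicate block, each library left out, 16 libraries (without met-2 RNAi replicate 1 and lin-65 EV replicate 1) and, chosen after seeing the data, removal of each library's trend on 3′ untranslated region length (loess, span 0.5). No replicate pair agreed within counting noise (smallest chi-square per degree of freedom 8.88).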

Additional observations from a re-analysis of the deposited data

Results flagged for a closer look

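A few named genes moved one way in all 3 met-2 RNAi libraries and the other way in all 3 RNAi libraries of another strain, each relative to its own empty vector (EV) libraries. For hsp-60 the met-2 fold change exceeded that of N2 by 0.71 ± 0.29 on the log2 scale (edgeR adjusted p 0.258). gas-1, a subunit of respiratory complex I, exceeded N2 by 0.68 ± 0.24 (0.245), with 265, 262 and 315 CPM on EV and 352, 329 and 441 CPM on RNAi in met-2. syp-1, a protein of the synaptonemal complex, exceeded N2 by 1.17 ± 0.42 (0.245). egl-17 lay below N2 by a difference of -2.57 ± 0.53 (0.0922). dpy-2, a furrow collagen, lay below lin-65 by -1.497 ± 0.564 (0.432). None of these differences passed the test. Over all genes tested, 340 had this opposite arrangement against N2 and 382 the same direction in both strains, and against lin-65 these counts were 102 and 423.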

How the results depend on the processing

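The met-2 response of 167 genes became 362 in DESeq2, 34 in the 6 met-2 libraries alone, 300 in 16 libraries and 309 in 16 libraries with the 3′ untranslated region trend removed. It ranged from 91 to 180 with 1 met-2 library left out. Other factors, filters and removal of the trend in all 18 libraries left it within 1.5 times. The difference from N2, 0 genes, became 142 in DESeq2, 12 without a filter, 4 in the libraries of both strains alone, 127 in 16 libraries, and 29 and 67 with the trend removed in 18 and 16 libraries. It was 0 to 11 with 1 library left out. The difference from lin-65, 0 genes, became 1 in DESeq2, 1 in 16 libraries and 1 there with the trend removed, and was 0 to 1 with 1 library left out. Among the named genes, met-2 (-0.60 to 0.10 with 1 library left out) turned to 0.10 and lin-65 (-0.63 to 0.20) to 0.20 in 16 libraries and without RNAi replicate 1, and to 0.11 and 0.16 in 16 libraries with the trend removed. hsp-6 turned to -0.25 without RNAi replicate 3 and was at most 0.69 without RNAi replicate 1. None of the 58 named genes past the threshold changed sign under any of these settings. As the EV and RNAi libraries of every called gene were separate, leaving out a library could hardly reverse a sign. In the 6 met-2 libraries alone 23 of the 58 kept their call and 35 lost it. With a replicate block there, 12 kept it and 46 lost it. The cause of these shifts was not tested.

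Same-numbered deviations correlated at -0.282, 0.208 and -0.245 in met-2 and at 0.201, 0.098 and -0.055 in lin-65. These values cannot decide whether replicate numbers pair the libraries, because the deviations also carry each library's trend on 3′ untranslated region length. In met-2 that trend was -0.646 and 0.570 in RNAi replicates 1 and 3, and 0.245 and -0.234 in EV replicates 1 and 3. In N2 all 3 correlations were above 0.1 (0.126, 0.357 and 0.285). A replicate block gave 207 genes for the met-2 response, 32 for the difference from N2 and 0 for that from lin-65. Restricted to the libraries compared, the block gave 13 and 7.

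Depth limits genes near 0.177 to 0.363 CPM, where a library holds about 3 counts. Counts near this level, such as vit-3 and vit-4 on RNAi, have folds that depend on the prior count.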

Other observations

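The genes of the met-2 response were unevenly placed among the chromosomes of the WBcel235 annotation. Of the 85 genes that fell, 35 (41.2%) are on chromosome X, which holds 14% of the genes tested, and they include vit-1 to vit-5, ule-5, stha-3 and ilys-5. Of the 82 that rose, 38 (46.3%) are on chromosome V, which holds 19.9%, and they include cyp-33C8, cdr-4, hrg-2, hrg-7, acs-2 and rips-1. The median log2 fold change of all genes tested was -0.10 on X and 0.07 on V, and 0.01 and -0.003 without RNAi replicate 1.

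Many called genes lie side by side. Of the genes that fell, 23 (27.1%) have a next tested gene that also fell, against 1.09% of all genes tested. Of 81 placed genes that rose, 11 (13.6%) have a neighbour that rose, against 1.08%, and 0 have a neighbour that fell. The longest runs are pud-1.2, pud-2.2, pud-3, pud-4 and pud-1.1 on chromosome V, and Y62H9A.3, Y62H9A.4, stha-3 and ule-5 on X, all of which fell. Next to each other are also cdr-4 and hrg-2, which rose, F18E3.11 to F18E3.13, which rose, and vit-4 and vit-3, which fell. Some of these neighbours are near-identical copies or may overlap, so shared reads cannot be told apart from separate changes.

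In 27 genes the met-2 response passed while the unadjusted p in both N2 and lin-65 was 0.05 or more (20 higher and 7 lower). The test of the difference against N2 passed for 0 of them in edgeR. One of the 2 genes with a higher response than N2 under DESeq2, 16 libraries and the replicate block was alh-9, an aldehyde dehydrogenase gene. It had 120, 104.4 and 142 CPM on EV and 230.4, 163 and 230.3 CPM on RNAi in met-2, and 145 ± 7.45 and 84.0 ± 13.2 CPM in N2 (difference 1.56 ± 0.29, adjusted p 0.062).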
